A study of Mus musculus with 25 samples.

Results

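The 10 genes described here are receptors, adhesion proteins, signalling proteins and 2 enzymes whose mean signal over the doses of hypochlorous acid (HOCl) from 0.35 to 2.8 mM was among the furthest below that of 0 mM in a mouse macrophage line. At 0.7 and 1.4 mM some of them overlapped 0 mM. They are Gpr183, Htr1b, Cd24a, Cldn11, Frmd4b, Ptp4a3, Rassf4, Lsp1, Rnase4 and Selenbp1, 10 of 18193 genes measured, and they have 22 of the 45037 probe sets tested. They were chosen by the size of that fall and by function, so their values between 0.35 and 2.8 mM, and the 0 mM values these were set against, are given as a description with no test. RAW 264.7 cells, an established macrophage line, had been grown in DMEM with fetal bovine serum and antibiotics and exposed to HOCl for 6 h. The doses were 0 mM with 4 arrays and, with 3 arrays each, 0.14, 0.35 and 0.7 mM, then 1.4 and 2.1 mM, and lastly 2.8 and 3.5 mM. Each of the 25 RNA samples was hybridized to its own Affymetrix mouse whole-genome array, and the design text calls the replicates biological. One cell line in serum-containing medium was used, so the doses are those added to the medium. The values are log2 signals relative to the median of each array (base 2 was inferred from their span), and all differences and folds below are on that scale. No fold is given to a mean below 0, the array median.

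HOCl is the oxidant that neutrophils make with myeloperoxidase, and macrophages meet it where neutrophils have been active. Macrophages find their place in tissue through receptors coupled to G proteins, hold on through adhesion molecules, and turn these signals into movement through actin-binding, scaffold and phosphatase proteins. All 10 macrophage markers listed for the check of the cell type, Adgre1, Csf1r and Cd68 among them, had a mean signal above 2. None of the 21 measured markers of T, B, epithelial, fibroblast, endothelial, neutrophil and mast cells did. On single arrays the mean of the macrophage markers lay between 5.33 and 5.98.

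Several arrays differed from the others of their dose, and this touches most of what follows. At 0 mM replicate 3 stood apart in some of the 10 genes, at 2.8 and at 3.5 mM replicate 1 did, and at 0.7 and 1.4 mM the 3 arrays differed among themselves. The arrays also fell into a pair of levels in 8 probe sets that read the 5′ portions of spiked Bacillus transcripts. Their mean was between 0.326 and 0.772 on 11 arrays and between 1.33 and 1.92 on the other 14. The lower level held every array of 0 and 0.14 mM, and at 0.35 and at 0.7 mM it held replicates 1 and 2. The labels name no batch, and above 0.7 mM a high spike level and a high dose cannot be told apart. Within the low level, the mean of the 0.35 mM arrays minus the 0 mM mean was -4.17 to -1.01 over the 10 genes. Within the high level, the 3.5 mM mean minus the 2.1 mM mean was 0.28 to 5.13. The genes were chosen for low values from 0.35 to 2.8 mM, so the signs of these differences largely follow from the choice.

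At 0.14 mM the mean differences of the genes from 0 mM ran from -0.185 to 0.621. The median difference of the 10 from 0 mM was 0.17, against 0.015 over all genes. None of the 10 had all 3 arrays below every 0 mM array (5.1% of all genes did), and Cldn11 had all 3 above. The Selenbp1 arrays of 0.14 mM, at most 4.77, overlapped 0 mM only through replicate 3 (1.70), the others being at 4.83 or more. At 0.35 mM all 10 genes had all 3 arrays below every 0 mM array, where 8.86% of all genes did, and at 2.1 mM all 10 did again, where 15% of all genes did. These counts follow from how the genes were chosen. In RNA of whole cultures a smaller number of expressing cells and less RNA per cell cannot be told apart. Between these doses the separation was partial, with 3 of 10 at 0.7 mM (3.69% of all genes) and 5 of 10 at 1.4 mM (10.4%). At 2.8 mM it was 6 of 10 (10.1%). Several of the overlaps were with 0 mM replicate 3 alone. These were Selenbp1, Lsp1, Rnase4 and Rassf4 at 0.7 mM, and Lsp1, Rnase4 and Cldn11 at 1.4 mM. At 2.8 mM they were Selenbp1, Lsp1 and Rnase4, and at 3.5 mM Rassf4. The median difference from 0 mM was -2.54 at 0.35 mM, -0.82 at 0.7 mM, -1.85 at 1.4 mM, -2.70 at 2.1 mM and -2.25 at 2.8 mM. At 3.5 mM it was -0.20, and 3 genes, Gpr183, Htr1b and Frmd4b, still had every array below 0 mM (6.75% of all genes). The median of all genes differed from 0 mM by less than 0.1 at every dose. Averaged over the 5 doses from 0.35 to 2.8 mM, the difference ranged from -3.56 for Selenbp1, which ranked 1 among all 18193 genes ordered from the lowest, to -1.44 for Htr1b, which ranked 60.

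**Figure D1:**
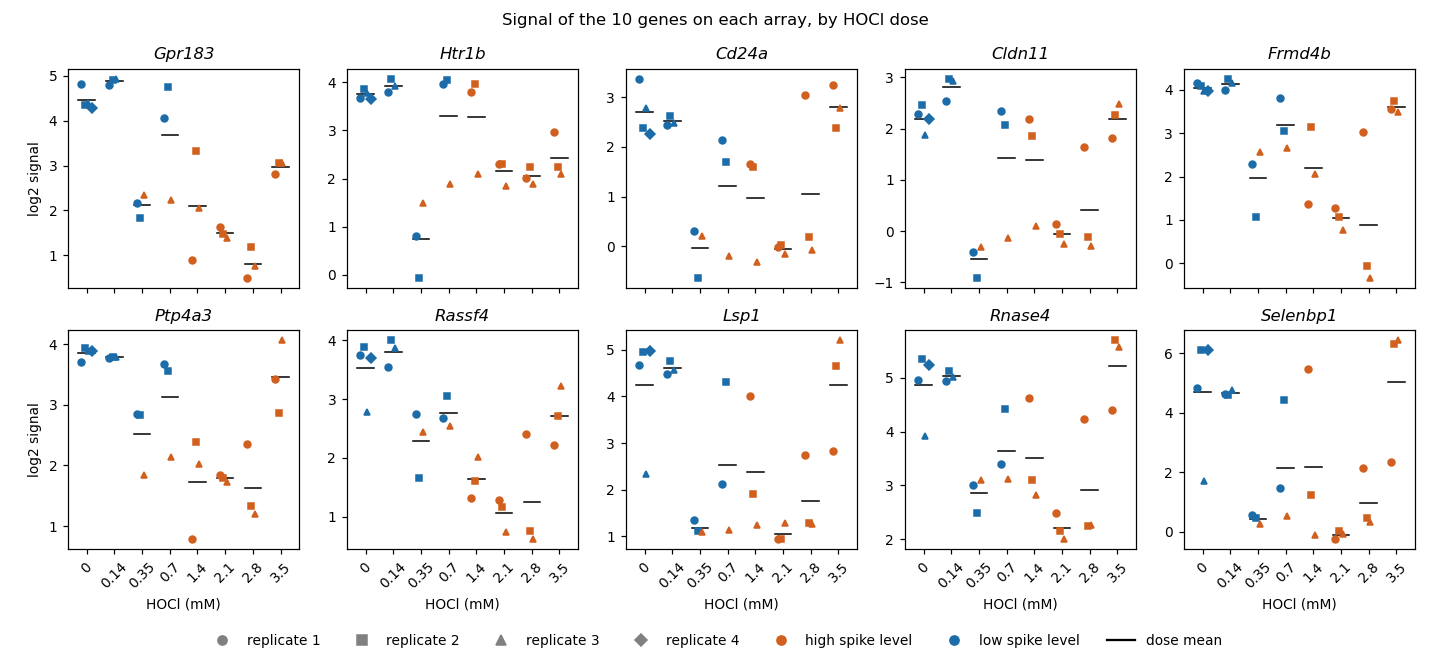
Log2 signal of each of the 10 genes (brightest probe set, vertical axis) on every array, by HOCl dose in mM (horizontal axis, not to scale). Symbols are replicates, bars are dose means and colour is the level of the spiked control transcripts. All 10 genes lie below every 0 mM array at 0.35 and 2.1 mM, and 7 of them overlap 0 mM at 0.7 mM and 5 at 1.4 mM. The overlap of Selenbp1, Lsp1, Rnase4 and Rassf4 at 0.7 mM is with 0 mM replicate 3 alone. So is that of Lsp1, Rnase4 and Cldn11 at 1.4 mM. At 3.5 mM the genes are near the 0 mM level or between it and the 2.1 mM level, except Htr1b, whose 3.5 mM arrays overlap those of 2.1 mM.

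The 2 receptors had different dose profiles. Gpr183, also called Ebi2, is a receptor coupled to G proteins that binds oxysterols and guides the migration of immune cells. Its signal was 4.82, 4.35, 4.39 and 4.29 at 0 mM, and 4.80, 4.91 and 4.94 at 0.14 mM. At the next doses it was 2.16, 1.83 and 2.34 at 0.35 mM, 4.06, 4.76 and 2.23 at 0.7 mM, and 0.90, 3.31 and 2.06 at 1.4 mM. The 2.1 and 2.8 mM arrays were low throughout, with 1.63, 1.48 and 1.38 at 2.1 mM and 0.50, 1.18 and 0.75 at 2.8 mM, and those of 3.5 mM had 2.81, 3.07 and 3.05. Thus 0.7 mM replicates 1 and 2 were within or near the range of 0 mM and replicate 3 was not. The 2.8 mM mean was 0.81 ± 0.34 (SD, n = 3), against 4.46 ± 0.24 at 0 mM (n = 4), which is 12.6-fold lower. At 3.5 mM the mean was 2.98 ± 0.14, between these levels and overlapping neither. The other Gpr183 probe set, which is dimmer, ran from -0.31 to 2.30 and had r = 0.84 with the first over the 25 arrays. It was below every 0 mM array at 2.1 and 2.8 mM and overlapped 0 mM at 0.35 mM. At 3.5 mM it averaged 1.32 ± 0.23, against 1.08 ± 0.45 at 0 mM, so the low 3.5 mM level rests on 1 of 2 probe sets. At 0.14 mM it averaged 2.20 ± 0.15, above every 0 mM array.

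Htr1b, a serotonin receptor that couples to inhibitory G proteins, had its lowest signal at the lowest of these doses. It stood at 3.68, 3.87, 3.79 and 3.66 at 0 mM and at 3.80, 4.08 and 3.92 at 0.14 mM, against 0.81, -0.06 and 1.50 at 0.35 mM. At 0.7 and 1.4 mM replicates 1 and 2 were at the 0 mM level and replicate 3 was low, with 3.96, 4.05 and 1.88 at 0.7 mM and 3.80, 3.96 and 2.09 at 1.4 mM. From 2.1 mM it settled at an intermediate level, 2.30, 2.31 and 1.85 at 2.1 mM, 2.02, 2.25 and 1.89 at 2.8 mM and 2.98, 2.24 and 2.09 at 3.5 mM. The arrays of these last 3 doses overlapped one another, and all of them were below every 0 mM array. Its mean difference from 0 mM was -3.00 at 0.35 mM (7.99-fold) and -0.45 at 0.7 mM. Without 0.7 mM replicate 3 the 0.7 mM difference was 0.26. The other Htr1b probe set, whose accession is the RefSeq transcript of the gene, moved little, from 1.03 to 1.87 over all arrays, so the fall rests on 1 of 2 probe sets.

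The 2 adhesion genes shared a pattern of high and low arrays. Cd24a encodes a small glycoprotein anchored in the outer leaflet of the plasma membrane, a ligand of P-selectin and of inhibitory Siglec receptors. Its arrays had 3.38, 2.38, 2.78 and 2.26 at 0 mM and 2.44, 2.61 and 2.48 at 0.14 mM. They had 0.31, -0.63 and 0.20 at 0.35 mM, 2.14, 1.70 and -0.19 at 0.7 mM, and 1.66, 1.59 and -0.32 at 1.4 mM. At the 3 highest doses they had -0.0043, 0.03 and -0.16 at 2.1 mM, 3.04, 0.19 and -0.07 at 2.8 mM, and 3.25, 2.37 and 2.79 at 3.5 mM. The highest of the low arrays was at 0.31 and the lowest of the others at 1.59. At 2.8 mM replicate 1 was at the untreated level and replicates 2 and 3 were near the 2.1 mM level. The 3.5 mM mean of 2.81 ± 0.44 overlapped that of 0 mM, 2.70 ± 0.50. All 3 Cd24a probe sets gave this picture, with r of 0.98 and 0.99 between the brightest and the other 2.

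Cldn11 encodes a claudin, a tight junction strand protein known best from myelin and from Sertoli cells. Its signal was 2.28, 2.45, 1.87 and 2.19 at 0 mM and 2.54, 2.98 and 2.93 at 0.14 mM, with every 0.14 mM array the higher. It was -0.41, -0.91 and -0.31 at 0.35 mM, 2.34, 2.06 and -0.14 at 0.7 mM, and 2.19, 1.86 and 0.11 at 1.4 mM. At higher doses it was 0.13, -0.07 and -0.25 at 2.1 mM, 1.64, -0.12 and -0.29 at 2.8 mM, and 1.83, 2.27 and 2.47 at 3.5 mM. The arrays that were low were those that were low for Cd24a, and the likeness of the 2 genes over the 25 arrays was r = 0.91. At 0.35 mM the mean was -0.54 ± 0.32, against 2.20 ± 0.25 at 0 mM, a difference of -2.74. The difference of -0.78 at 0.7 mM was 0.0035 without replicate 3. At 3.5 mM the mean of 2.19 ± 0.33 differed from the 0 mM mean by -0.006.

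Among the signalling and cytoskeletal genes, the brightest probe sets of Frmd4b and Ptp4a3 were below every 0 mM array on every array from 0.35 to 2.8 mM. Frmd4b encodes a FERM domain scaffold that binds a cytohesin, an activator of ARF GTPases. At 0 and 0.14 mM all 7 arrays lay between 3.97 and 4.26. They then had 2.29, 1.06 and 2.58 at 0.35 mM, 3.83, 3.06 and 2.66 at 0.7 mM, and 1.37, 3.14 and 2.05 at 1.4 mM. At higher doses the values were 1.28, 1.08 and 0.77 at 2.1 mM, 3.04, -0.06 and -0.34 at 2.8 mM, and 3.56, 3.75 and 3.50 at 3.5 mM. The lowest 2 arrays of all were replicates 2 and 3 of 2.8 mM, while replicate 1 of that dose stood with the 0.7 mM arrays. At 3.5 mM all arrays were between those of 2.1 mM and those of 0 mM, with a mean difference of -0.45 from 0 mM. Of the 5 Frmd4b probe sets, 3 spanned at least 2.00 over the arrays. The other 2 spanned 1.48 and 1.05 and overlapped 0 mM at 0.35 mM.

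Ptp4a3 encodes a small prenylated phosphatase of the PRL family, which binds the CNNM magnesium transport proteins. Its values were 3.70, 3.93, 3.89 and 3.88 at 0 mM and 3.77, 3.78 and 3.79 at 0.14 mM. They were 2.85, 2.83 and 1.85 at 0.35 mM, 3.68, 3.56 and 2.13 at 0.7 mM, and 0.78, 2.39 and 2.02 at 1.4 mM. Above that they were 1.85, 1.79 and 1.72 at 2.1 mM, 2.35, 1.33 and 1.20 at 2.8 mM, and 3.42, 2.87 and 4.07 at 3.5 mM. The arrays of 0.14 mM had an SD of 0.0094 while those of 3.5 mM spanned the 0 mM range on both sides. Its largest mean difference was -2.22 at 2.8 mM, 4.67-fold. The other Ptp4a3 probe set was dim, between -1.12 and -0.50 on all arrays, and overlapped 0 mM at every dose. The fall thus rests on the brightest probe set alone.

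Rassf4 encodes a Ras association domain protein of the family that links Ras to the Hippo kinases. Its values were 3.75, 3.89, 2.79 and 3.70 at 0 mM, with replicate 3 the low one, and 3.54, 4.00 and 3.88 at 0.14 mM. They were 2.74, 1.65 and 2.44 at 0.35 mM, 2.67, 3.06 and 2.53 at 0.7 mM, and 1.32, 1.61 and 2.02 at 1.4 mM. At the top doses they were 1.28, 1.16 and 0.74 at 2.1 mM, 2.40, 0.76 and 0.62 at 2.8 mM, and 2.21, 2.71 and 3.22 at 3.5 mM. The lowest arrays were again those of 2.1 mM and replicates 2 and 3 of 2.8 mM, and 3.5 mM overlapped 0 mM only through 0 mM replicate 3. The mean at 2.1 mM was 1.06 ± 0.28, against 3.53 ± 0.50 at 0 mM, a difference of -2.47, and of -2.72 without 0 mM replicate 3. The likeness of Rassf4 to Frmd4b was r = 0.91.

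Lsp1, Rnase4 and Selenbp1 formed the tightest set, with r of 0.98 between Lsp1 and Selenbp1 and 0.96 between Lsp1 and Rnase4. Lsp1 is an actin-binding phosphoprotein of leukocytes. It had 4.67, 4.96, 2.34 and 4.97 at 0 mM and 4.47, 4.77 and 4.57 at 0.14 mM. It had 1.36, 1.10 and 1.09 at 0.35 mM, 2.12, 4.31 and 1.13 at 0.7 mM, and 4.01, 1.90 and 1.24 at 1.4 mM. At the 3 highest doses it had 0.94, 0.94 and 1.29 at 2.1 mM, 2.75, 1.28 and 1.27 at 2.8 mM, and 2.83, 4.66 and 5.21 at 3.5 mM. So 0 mM replicate 3, which was untreated, was nearly as low as 0.7 mM replicate 1, while 1.4 mM replicate 1 and 0.7 mM replicate 2 were near the untreated level. The mean at 2.1 mM was 1.06 ± 0.20, against 4.24 ± 1.27 at 0 mM, a difference of -3.18 and, without 0 mM replicate 3, of -3.81. At 3.5 mM replicates 2 and 3 were at the untreated level and replicate 1 was not.

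Selenbp1 encodes a selenium binding protein that acts in humans as a methanethiol oxidase. Its range over the arrays was the widest of the 10 genes. The signal was 4.83, 6.12, 1.70 and 6.12 at 0 mM, and 4.62, 4.59 and 4.77 at 0.14 mM. In the middle doses it had 0.55, 0.48 and 0.27 at 0.35 mM, 1.47, 4.44 and 0.53 at 0.7 mM, and 5.47, 1.22 and -0.12 at 1.4 mM. At the top it had -0.25, 0.03 and -0.08 at 2.1 mM, 2.14, 0.45 and 0.33 at 2.8 mM, and 2.36, 6.30 and 6.44 at 3.5 mM. The arrays with an intermediate signal, replicate 3 at 0 mM, replicate 1 at 0.7, 2.8 and 3.5 mM and replicate 2 at 1.4 mM, were also intermediate for Lsp1. At 2.1 mM the mean was -0.10 ± 0.14, against 4.69 ± 2.09 at 0 mM. The difference of -4.79 was -5.79 without 0 mM replicate 3, and -5.67 in the other probe set. The highest 2 arrays of all 25 were replicates 3 and 2 of 3.5 mM, the highest dose. The brightest probe set is annotated to Selenbp1, but its accession is the RefSeq transcript of Selenbp2, a close paralog, so it may report on both. The other probe set, whose accession is that of Selenbp1, had r = 0.998 with it and ran from -1.06 to 6.54.

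Rnase4 encodes a secreted ribonuclease of the RNase A family. Its values were 4.95, 5.35, 3.92 and 5.23 at 0 mM and 4.94, 5.12 and 5.01 at 0.14 mM. They were 3.01, 2.48 and 3.10 at 0.35 mM, 3.39, 4.42 and 3.13 at 0.7 mM, and 4.61, 3.09 and 2.82 at 1.4 mM, followed by 2.49, 2.15 and 2.00 at 2.1 mM, 4.23, 2.24 and 2.26 at 2.8 mM, and 4.41, 5.70 and 5.57 at 3.5 mM. Here too 0 mM replicate 3 and 3.5 mM replicate 1 were below the others of their dose. At 2.1 mM the mean of 2.21 ± 0.25 was 6.28-fold below the 4.86 ± 0.65 of 0 mM. Rnase4 shares a transcription start with Ang, the gene of the ribonuclease angiogenin, and has a second start of its own. Ang was dim on all arrays (brightest probe set from -1.09 to 0.25) and was not called at 2.1 mM (log2 difference -0.59, SE 0.20, limma adjusted p = 0.0578) or by the F test over all doses (limma adjusted p = 0.0542).

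Start windows of 7 of the 10 genes, 10 windows in all, were taken from RefSeq (build GRCm38.p6). The 250 bases before 4 of them are shown. Both Rnase4 starts are given, since the first is also that of Ang, and Selenbp1 for the widest range. Gpr183 is given as the gene with an adjusted p (limma) under 0.05 between 3.5 and 0.14 mM, a comparison described further on. Each window is written 5′ to 3′ on the strand of the gene, and the last base is the one before the start. Capitals mark AGGAAG, the core bound by ETS factors such as PU.1, and TATAAA, the TATA box, on either strand.
Rnase4 and Ang, shared start, chr14:51090827-51091076, + strand: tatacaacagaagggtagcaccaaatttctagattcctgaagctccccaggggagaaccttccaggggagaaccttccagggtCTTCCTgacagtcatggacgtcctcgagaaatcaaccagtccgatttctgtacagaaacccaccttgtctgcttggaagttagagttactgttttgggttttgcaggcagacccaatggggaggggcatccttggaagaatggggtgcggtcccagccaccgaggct
Rnase4, second start, chr14:51095750-51095999, + strand: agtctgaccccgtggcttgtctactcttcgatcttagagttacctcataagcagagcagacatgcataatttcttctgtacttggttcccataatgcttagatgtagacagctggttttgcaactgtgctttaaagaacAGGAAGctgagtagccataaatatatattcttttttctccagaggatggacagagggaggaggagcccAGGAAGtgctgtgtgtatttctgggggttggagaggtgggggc
Selenbp1, chr3:94932833-94933082, + strand: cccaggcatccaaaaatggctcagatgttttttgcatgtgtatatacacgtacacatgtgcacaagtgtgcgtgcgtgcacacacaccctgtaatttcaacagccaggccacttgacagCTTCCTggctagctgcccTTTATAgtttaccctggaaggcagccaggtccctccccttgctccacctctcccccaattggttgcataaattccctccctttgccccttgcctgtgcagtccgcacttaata
Gpr183, chr14:121965194-121965443, - strand: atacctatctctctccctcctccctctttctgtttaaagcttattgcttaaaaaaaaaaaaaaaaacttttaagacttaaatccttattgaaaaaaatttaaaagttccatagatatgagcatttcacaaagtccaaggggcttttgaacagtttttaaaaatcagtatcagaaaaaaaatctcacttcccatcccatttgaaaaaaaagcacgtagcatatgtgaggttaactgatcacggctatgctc
AGGAAG was found on either strand in 8 of the 10 start windows of these genes and in 29.5% of the 32851 start windows of all genes in the table. The 3 windows of Frmd4b and both of Rnase4 come from single genes, and the Gpr183 and Cldn11 windows hold no match. TATAAA was found in 2 of 10 (12.4% of all windows), the AP-1 motif TGANTCA in 1 of 10 (6.75%) and TGACNNNGC, the core of the antioxidant response element, in 2 of 10 (10.2%). Both of these TGACNNNGC matches, and the AP-1 match, are in Frmd4b windows. Motifs were searched without regard to overlap between them, and a match is a description of the letters only.

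The 10 genes fell into sets by which arrays were low, and not by dose alone. An array was counted as low for a gene when its signal was below the middle of that gene's own range over the 25 arrays, a division made after the values were seen. By this count all 10 genes were low on 2.1 mM replicate 3 and 2.8 mM replicate 3, and 9 on 0.35 mM replicate 2, both other 2.1 mM arrays and 2.8 mM replicate 2. On 0.35 mM replicates 1 and 3 the count was 7 and 8. The doses of 0.7 and 1.4 mM were mixed. At 0.7 mM replicate 1 was low for Selenbp1, Lsp1 and Rnase4 only, replicate 2 for none of the 10, and replicate 3 for 8 of them. At 1.4 mM replicate 1 was low for Ptp4a3, Gpr183, Frmd4b and Rassf4, replicate 2 for Selenbp1, Lsp1, Rnase4, Ptp4a3 and Rassf4, and replicate 3 for 8 genes.

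**Figure D2:**
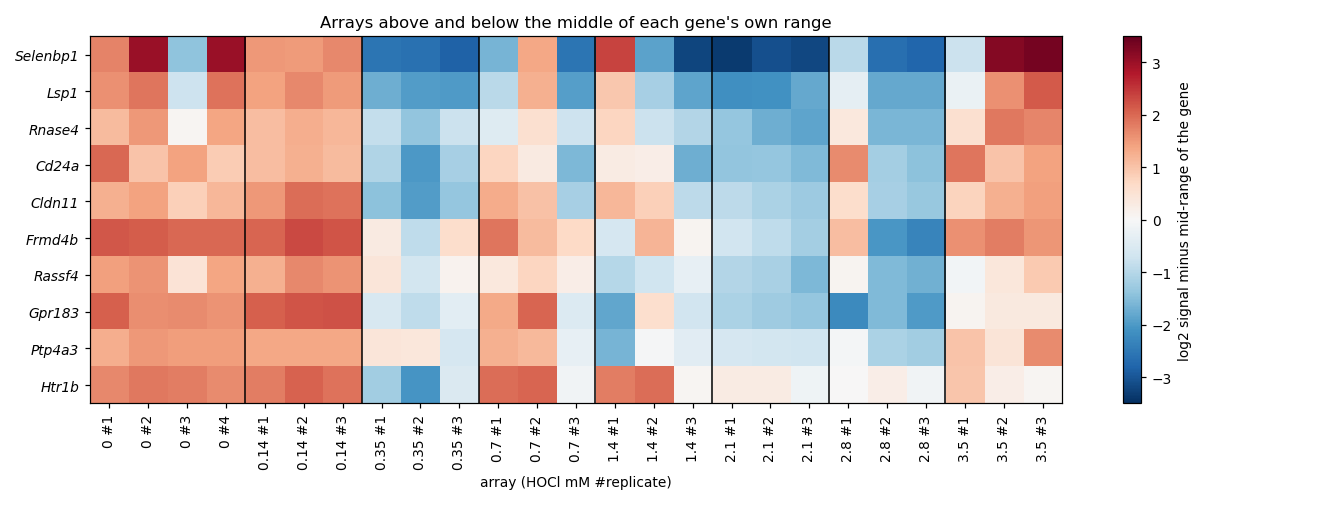
Log2 signal of each gene (rows) on each of the 25 arrays (columns, by HOCl dose and replicate) minus the middle of that gene's own range, red above and blue below. The column of 2.1 mM replicate 3 is blue in all 10 rows, while 1.4 mM replicate 1 is blue for Frmd4b, Rassf4, Gpr183 and Ptp4a3 and red for the other 6.

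The same arrays recurred outside the middle doses. Untreated replicate 3 was low for Selenbp1 and Lsp1, and 3.5 mM replicate 1 was low for Selenbp1, Lsp1 and Rassf4. At 2.8 mM replicate 1 was low for Selenbp1, Lsp1, Ptp4a3 and Gpr183 and high for the adhesion genes Cd24a and Cldn11. Between genes of different sets the likeness was weaker, down to r = 0.45 between Htr1b and Ptp4a3. These r values are over 25 arrays that share doses and spike levels and are given as descriptions. Macrophage marker means were 5.73 on 0 mM replicate 3, 5.38 on 1.4 mM replicate 2 and 5.69 on 3.5 mM replicate 1, against 5.33 to 5.98 over all arrays.

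**Figure D3:**
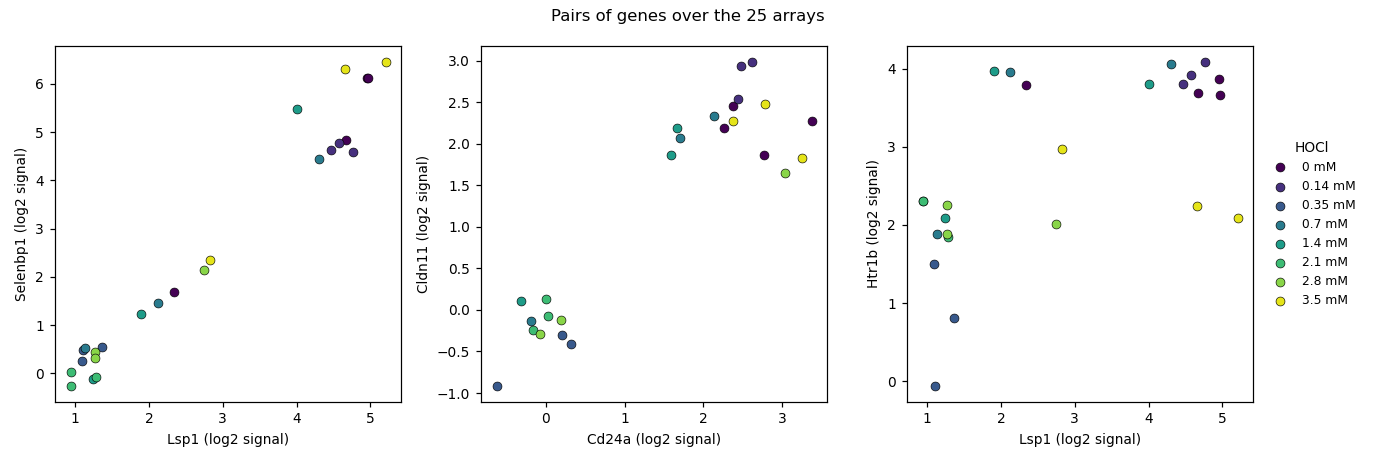
Log2 signals of pairs of genes over the 25 arrays, 1 point per array, coloured by HOCl dose. Selenbp1 against Lsp1 forms a line with arrays of 0, 0.7, 1.4, 2.8 and 3.5 mM between its ends, Cldn11 against Cd24a forms 2 groups of arrays, and Htr1b against Lsp1 has arrays high in one gene and low in the other.

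Whether the genes had returned at 3.5 mM to the level of the lowest dose was asked by setting the 3.5 mM arrays against those of 0.14 mM. The falls by which the genes were chosen used neither of these groups. However, the 3.5 mM levels were known when the genes were proposed, and the rule that proposed them names that level. The p-values here set a difference against the spread between arrays, which is pooled over all doses, those of the choice included. They are not independent support. For Frmd4b the SD was 0.13 at both 0.14 and 3.5 mM but 1.87 at 2.8 mM, so its interval below reflects the spread at other doses. Gpr183 was 3.75-fold lower, at 2.81, 3.07 and 3.05 at 3.5 mM, against 4.80, 4.91 and 4.94 at 0.14 mM (log2 difference -1.91, SE 0.48, limma adjusted p = 0.0146), and no arrays overlapped. It was the 1 gene of 10 with an adjusted p under 0.05, where 4.8% of all genes were called lower. Htr1b had a log2 difference of -1.50 (SE 0.49, limma adjusted p = 0.0541), with 3.5 mM arrays of 2.98, 2.24 and 2.09, against 3.80, 4.08 and 3.92 at 0.14 mM. The other probe sets had -0.88 for Gpr183 (limma adjusted p = 0.0608) and 0.18 for Htr1b (limma adjusted p = 0.508). For Gpr183 that probe set was above 0 mM at 0.14 mM and overlapped it at 3.5 mM. For Rassf4 the difference was -1.09 (SE 0.39, limma adjusted p = 0.0793), while its other 2 probe sets had 0.39 (limma adjusted p = 0.443) and -0.34 (limma adjusted p = 0.238) and overlapped. In 5 of the 10 genes (Gpr183, Htr1b, Rassf4, Cldn11 and Frmd4b) every 3.5 mM array of the brightest probe set was below every 0.14 mM array, which held for 11.7% of all genes. In either direction 10.9% of all probe sets passed.

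The other 7 genes gave differences from -0.63 for Cldn11 to 0.38 for Selenbp1, with adjusted p (limma) of 0.523 to 0.893. These do not show that the genes were back at the 0.14 mM level. The 95% interval of the difference was -1.20 to 0.54 for Ptp4a3, -1.79 to 0.54 for Cldn11 and -1.80 to 0.72 for Frmd4b. It was -0.89 to 1.28 for Rnase4, -1.10 to 1.69 for Cd24a and -2.03 to 1.30 for Lsp1. For Selenbp1 it ran from -2.36 to 3.11, and its 3.5 mM arrays were split. Without 3.5 mM replicate 1 the difference of Selenbp1 was 1.72 and that of Lsp1 0.33, and without replicate 3 they were -0.33 and -0.86.

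The Gpr183 call was lost without 0.14 mM replicate 3 (log2 difference -1.88, limma adjusted p = 0.0514). With spike level as a term, which all 3.5 mM and no 0.14 mM arrays carry, the difference was -0.99 (limma adjusted p = 0.453), and Htr1b did not pass either (limma adjusted p = 0.489). Fitted by limma on the 6 arrays of these 2 doses alone, Htr1b (adjusted p = 0.00538), Frmd4b (adjusted p = 0.0229) and Rassf4 (adjusted p = 0.0256) passed besides Gpr183. The share of all genes called lower in that fit was not computed.

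**Figure D4:**
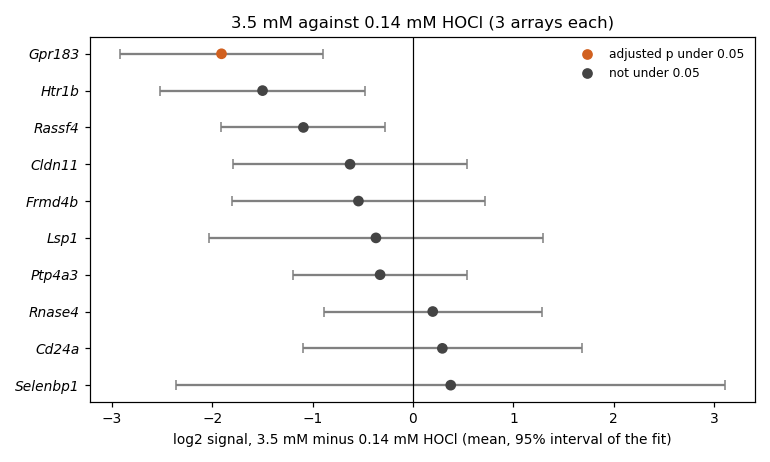
Difference in log2 signal between 3.5 and 0.14 mM HOCl (horizontal axis, 3.5 minus 0.14 mM, 3 arrays each) for the 10 genes, with the 95% interval of the limma fit over 25 arrays. Gpr183, at -1.91, is the gene with an adjusted p under 0.05, and Selenbp1 has the widest interval. The 3.5 mM levels were known when the genes were proposed, so these values are not independent support.

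Genes outside the 10 followed the same arrays closely. The 8 genes most like the mean of the 10 (each scaled over the 25 arrays) were Fam174a (r = 0.98), Aldh9a1, Man2b1, Pld4, Kank2, Slc44a1, Dram1 and Myl12b (r = 0.96 for the last), over 25 arrays. Single members of the 10 had r of 0.74 (Htr1b) to 0.94 (Cldn11) with that mean, which contains them. Man2b1 encodes a lysosomal mannosidase, Pld4 an endolysosomal nuclease, Slc44a1 a choline transporter and Myl12b a myosin light chain. Pld4 had means of 1.99 at 2.1 mM and 4.17 at 3.5 mM, against 4.11 at 0 mM. Running the opposite way were Rwdd4a (r = -0.96), Pla2g5, Abhd5 and Plaur (r = -0.93). Plaur, the urokinase receptor, averaged 5.70 at 2.1 mM and 3.11 at 3.5 mM, against 3.22 at 0 mM.

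For single genes the nearest neighbour over the 25 arrays was Trem2, a lipid-sensing receptor of macrophages, for Cd24a (r = 0.97), and Slc44a1 for Cldn11 (r = 0.96). Grcc10 was nearest to Lsp1 (r = 0.99), Ndufv3 to Selenbp1 (r = 0.99) and Myl12b to Rnase4 (r = 0.97). Frmd4b was nearest to Anln, the gene of the cytokinesis protein anillin (r = 0.97), and Ptp4a3 to the cyclin gene Ccnd3 (r = 0.96). The others were St8sia4 for Gpr183 (r = 0.95), Olfm1 for Rassf4 (r = 0.94) and Ak4 for Htr1b (r = 0.90). Each is the best of all other genes measured, on the same arrays.

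Other genes of the same families and pathways, 121 measured genes in 11 lists, were for the most part not called. At 2.1 mM limma called 15 of the 121 lower and 8 higher, against 8.2% and 7.32% of all genes, and their median difference from 0 mM was -0.04, against 0.0049 over all genes. At 3.5 mM it called 8 lower and 1 higher, against 4.83% and 4.54% of all genes, with a median of 0.064, against 0.0973 over all genes. With spike level as a term the 2.1 mM test called 0 list genes in each direction, 12 lower and 5 higher having an unadjusted p under 0.05. Every single call at 2.1 mM below is thus lost under that term. The term rests on replicate 3 of 0.35 and of 0.7 mM and cannot tell spike level from dose at 2.1 mM. At 0.35 mM, where replicates 1 and 2 had the low spike level of 0 mM, limma called 10 list genes lower and 4 higher. The share of all genes called there is not given. Those lower included Itga4 (-1.62, limma adjusted p = 0.0123), Cx3cr1 (-1.64, adjusted p = 0.0167) and Myo1f (-1.71, adjusted p = 0.0126). Ccr1 (1.80, adjusted p = 0.0491) and Slc6a4 (1.02, adjusted p = 0.0268) were among those higher. The moderated F test over the 7 doses called 45 of the 121 genes and 28% of all genes (24.7% of all probe sets).

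Cyp27a1, an enzyme that makes an oxysterol, was the 1 gene of 5 on the oxysterol list called at 2.1 mM. It fell by 1.31 (SE 0.23, limma adjusted p = 0.00123) and was at 0.37 at 3.5 mM (adjusted p = 0.322), each against 0 mM. Ch25h and Cyp7b1, whose products form the main Gpr183 ligand, were dim (means of -0.75 and -1.15 at 0 mM). Among serotonin genes Slc6a4, the serotonin transporter, had 0.70 at 2.1 mM (adjusted p = 0.0843) and Maoa, which breaks serotonin down, 0.09 (adjusted p = 0.783). Of 13 genes on that list Htr3a was called at 2.1 mM, where it rose by 0.28 (adjusted p = 0.0314), which is named after its value was seen. Among 17 other chemoattractant and lipid receptors 1 fell and 2 rose at 2.1 mM. Cx3cr1, the fractalkine receptor, fell by 2.24 (SE 0.38, limma adjusted p = 0.000987) and Ccr1, a chemokine receptor, rose by 2.02 (SE 0.54, adjusted p = 0.0169). Ptger2, a prostaglandin receptor named after its value was seen, rose by 2.41 (adjusted p = 0.0114).

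Of 15 claudin and tight junction genes those called at 2.1 mM were Tjp3, a junction scaffold, which fell by 0.91 (SE 0.20, limma adjusted p = 0.00597), and Cldn12, which rose by 1.56 (SE 0.46, adjusted p = 0.0278). In the adhesion list 4 of 22 genes fell at 2.1 mM and 2 rose. Itga4, an integrin alpha subunit, fell by 2.14 (SE 0.35, limma adjusted p = 0.000756), and Selplg, the selectin ligand PSGL, fell by 1.28 (SE 0.21, adjusted p = 0.000697). Itgb1, the integrin beta subunit that pairs with Itga4, rose by 0.71 (SE 0.12, adjusted p = 0.000756). At 3.5 mM Itga4 fell by 1.16 against 0 mM (adjusted p = 0.0419), while Selplg was at 0.10 (adjusted p = 0.796).

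Of 11 actin regulators beside Lsp1, those called at 2.1 mM were Coro1a and Myo1f. Coro1a, the leukocyte coronin, fell by 0.68 at 2.1 mM (SE 0.13, limma adjusted p = 0.00253) and Myo1f, a leukocyte myosin, fell by 2.13 (SE 0.37, adjusted p = 0.00118). At 3.5 mM they were at -0.09 and 0.09 (adjusted p = 0.706 and 0.901). Ptp4a2, a PRL phosphatase like Ptp4a3, was at 0.16 at 2.1 mM (adjusted p = 0.345) and fell by 0.49 at 3.5 mM (SE 0.11, limma adjusted p = 0.00616). Cnnm4, a magnesium transport protein, was at -0.21 at 2.1 mM (adjusted p = 0.495) and fell by 0.99 at 3.5 mM (SE 0.18, adjusted p = 0.00164). Stk4, a Hippo kinase, was at -0.23 at 2.1 mM (adjusted p = 0.431) and fell by 0.77 at 3.5 mM (adjusted p = 0.00867). Rassf3 fell by 1.04 at 2.1 mM (adjusted p = 0.0127) and Mob1a, a partner of the Hippo kinases, rose by 0.41 (adjusted p = 0.011). In the RASSF and Hippo list, 13 genes, 2 fell and 2 rose at 2.1 mM and 3 fell at 3.5 mM, and in the PRL and CNNM list, 5 genes, 2 fell at 3.5 mM. Of 7 FERM domain and cytohesin genes 1 was called at 3.5 mM. Cyth1, a cytohesin, fell by 1.07 at 3.5 mM (adjusted p = 0.00365) and was at -0.47 at 2.1 mM (adjusted p = 0.173).

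Sulfide and thiol oxidation genes, the list of Selenbp1, had 3 of 5 genes lower at 2.1 mM. Suox, the sulfite oxidase, fell by 0.62 (SE 0.20, limma adjusted p = 0.04), Tst, a sulfurtransferase, fell by 0.43 (SE 0.13, adjusted p = 0.0323), and Mpst, named after its value was seen, fell by 0.50 (adjusted p = 0.0349). Ethe1, a persulfide dioxygenase, was at -0.45 at 2.1 mM (adjusted p = 0.0697) and rose by 0.65 at 3.5 mM (SE 0.16, adjusted p = 0.0137). Of 8 measured ribonuclease genes besides Rnase4, Ang2, a dim relative of Ang, fell by 0.49 at 2.1 mM (SE 0.15, adjusted p = 0.0344), and Rnase6 was at -0.21 (adjusted p = 0.284). The rule also named genes that were called at neither dose and are not described here, which are Cyth3, Frmd6, Cnnm3, Cldn10, Vasp, S1pr2, Hsd3b7 and Tph1.

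**Figure D5:**
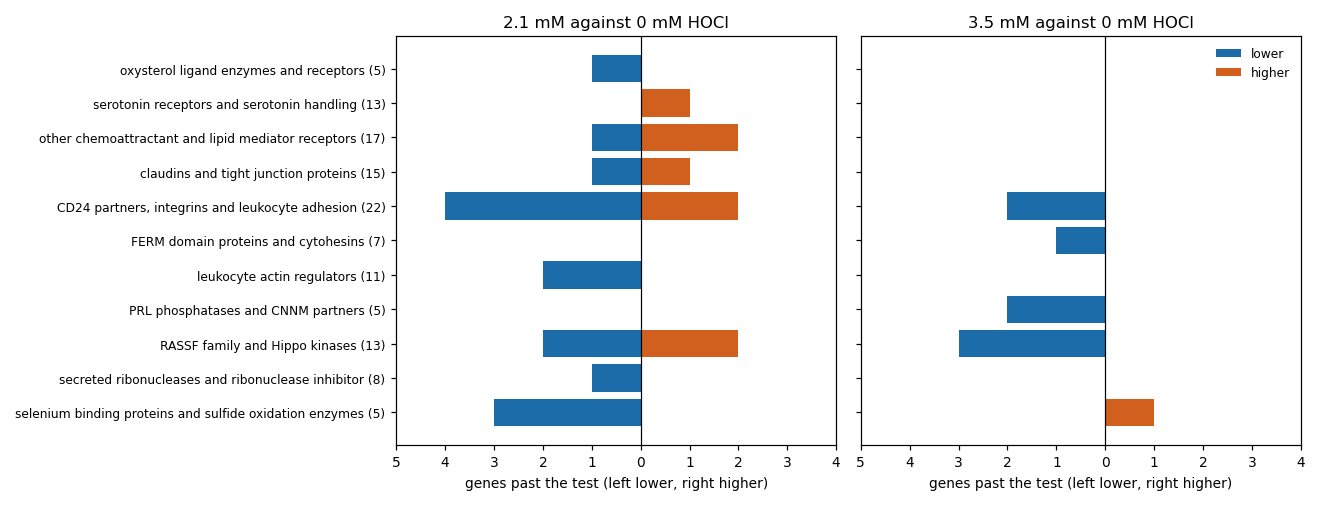
Number of related genes, the 10 genes left out, that limma called lower (left of 0) or higher (right of 0) at 2.1 mM and at 3.5 mM HOCl, each against 0 mM, in 11 lists with the number measured in brackets. At 2.1 mM 15 of 121 are lower and 8 higher, and at 3.5 mM 8 are lower and 1 is higher.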

How the data were processed

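RNA of RAW 264.7 cultures was measured on 25 arrays. The authors deposited log2 signals per probe set, made with RMA per the submitters' processing notes and with Array Assist per the labels; neither source gives a version or the log base, and base 2 was inferred. Every deposited array has a median of 0 and a 75th percentile between 1.39 and 1.86. After setting 64 control probe sets aside, 45037 were tested unfiltered. The brightest probe set with 1 symbol stood for a gene (34945 probe sets, 18193 genes; 932 have several symbols and 9160 none).

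A mean per dose was estimated by limma 3.58.1 (R 4.3.3; 17 residual and 2.99 prior degrees of freedom) from the 25 arrays together, two-sided, with Benjamini-Hochberg adjustment over all probe sets and a threshold of 0.05. The procedure was tested on simulated data with independent noise and a single SD per probe set. In the real arrays the SD differed by dose, so that test does not cover this. The members, the related lists (143 genes, 131 measured) and the tests were chosen with earlier results of these data known. The naming rule took all members, the 3 genes of each related list with the lowest F test p, and the genes most and least like the members. The number of arrays limits the precision, and p-values measure the spread between arrays of a dose, pooled over doses. Arrays were not paired by replicate number in the main fit. Alternatives were quantile normalization, leaving out dim probe sets, another variance prior, array weights, a replicate block, a spike level term, the probe set of largest variance, only the groups compared, and each array left out.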

Additional observations from a re-analysis of the deposited data

Results flagged for a closer look

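In 2 of the 10 genes 1 array of 0 mM stood far from the other 3 for their range. Such a gap is met by chance in about 1 in 20 groups, and it is given as a description, since the 0 mM values entered the choice of the genes. Lsp1 was at 2.34 on 0 mM replicate 3, with the next array at 4.67. Rassf4 was at 2.79 on that array, with the next at 3.70. The probe sets of the spiked Bacillus controls, which no comparison used as an outcome, were at 1.43 or more on every array from 1.4 to 3.5 mM, against at most 0.772 at 0 mM.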

How the results depend on the processing

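The count of the 10 genes called lower at 3.5 mM than at 0.14 mM was 1. It was 2 without dim probe sets or with a trended and robust variance prior, 3 with array weights, 4 with only the arrays compared, 0 with the spike term (0 at an unadjusted p under 0.05) and 0 to 2 over the fits without 1 array (0 without 0.14 mM replicate 3, where 3 had an unadjusted p under 0.05). Htr1b was the gene added with each of the first 2 settings (limma adjusted p = 0.0369 and 0.0495). The share of all genes called lower was computed for the main fit only (4.8%), so the other counts have no share beside them. In either direction 4924 probe sets passed in the main fit, 4243 without dim probe sets, 4723 with the other variance prior and 10743 with array weights. The Gpr183 difference was -1.95 to -1.83 without 1 array, called in 24 of 25 such fits. The spike term turned the sign for Lsp1 (0.742), Cldn11 (0.364) and Ptp4a3 (0.912). That term rests on replicate 3 of 0.35 and of 0.7 mM, the only arrays whose spike level differed from others of their dose. Without 1 array the differences ran from -0.33 to 1.72 for Selenbp1, -0.86 to 0.33 for Lsp1 (0.331 also with 3.5 mM replicate 1 and 0 mM replicate 3 both left out, a choice made after seeing the data) and -0.040 to 0.61 for Rnase4, and Selenbp1 was also at -0.26 without 3.5 mM replicate 2. None of these passed. At 0.7 mM minus 0 mM, untested, Htr1b ran from -0.48 to 0.256 and Cldn11 from -0.89 to 0.0035 without 1 array, the higher value in each case without 0.7 mM replicate 3.

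Array weights, whose estimate did not converge fully, moved the probe sets called from 4924 to 10743 (3.5 against 0.14 mM), from 6015 to 16406 (2.1 against 0 mM), from 4199 to 7409 (3.5 against 0 mM) and from 11114 to 37804 (F test). With the spike term these 4 counts were 1734, 39, 2624 and 6963, and with only the arrays compared the 3.5 against 0 mM count was 1819. For the related genes, array weights gave 33 lower and 18 higher at 2.1 mM, 6 higher at 3.5 mM and 111 by the F test. The spike term gave 0 lower and 0 higher at 2.1 mM, 2 higher at 3.5 mM and 29 by the F test. The 1 gene higher at 3.5 mM became 4 with quantile normalization, 2 with the replicate block or the probe set of largest variance, and 0 with both arrays left out, and the 8 lower became 3 with only the arrays compared. Without 1 array the counts ran from 2711 to 5921 (3.5 against 0.14 mM), 3120 to 6630 (2.1 against 0 mM), 2817 to 4718 (3.5 against 0 mM) and 8912 to 12722 (F test). For the related genes they ran from 8 to 19 lower and 2 to 11 higher at 2.1 mM, 4 to 9 lower and 0 to 4 higher at 3.5 mM, and 34 to 52 by the F test. Counts moved by over 1.5 times without 0.14 mM replicate 1, 2 or 3 (3061, 2898 and 2711) or 3.5 mM replicate 3 (2960) in the first comparison, and without 2.1 mM replicate 1, 2 or 3 (3243, 3120 and 3424) in the second. Fewer arrays stand behind each of these, and the cause of the other moves was not tested. No pairing of same-numbered arrays was assumed. Of 84 same-numbered pairs from different doses, 19 had residuals correlated above 0.1 (median -0.0256, from -0.698 to 0.555). The replicate block gave 3990 calls at 2.1 against 0 mM, left Gpr183 called (-1.91, limma adjusted p = 0.0195) and Htr1b not (limma adjusted p = 0.0568).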
